A study of Homo sapiens with 2 samples.

Results

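YB-1 was crosslinked within the first 500 bases of the 3′ UTR at 160 sites in wild-type HEK293T cells, of 2277 sites in the whole series. A site was counted when the middle base of its cluster lay, on the same strand, no more than 500 spliced bases downstream of where the coding sequence ends. The transcript used was the one with the longest coding sequence of each protein-coding gene in GENCODE release 44, which gave 19702 transcripts, of which 19545 had a 3′ UTR. Clusters wider than 60 bases and clusters of the mitochondrial genome were left out, and overlapping clusters of the 2 replicates were joined into 1 site. These limits alone left 2199 sites in the series. The members came from 120 of 1382 clusters of Rep.A and 142 of 2011 clusters of Rep.B. Distances are given as spliced bases past the coding sequence, with the 3 bases of the stop codon counted as the first bases of the 3′ UTR, as in the annotation.

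The tables are those of 2 PAR-CLIP replicates against YB-1, named Rep.A and Rep.B and described as independent, in HEK293T, a human embryonic kidney cell line with the wild-type genotype. Cells of both were grown with 100 µM 4-thiouridine over 16 h, and crosslinking used light of 365 nm at 0.15 J/cm2. The RNA of the cytoplasmic lysate was trimmed with RNase T1, and YB-1 was recovered with antibodies against it. There was 1 condition and no control library, and the tables hold no expression levels, so neither the abundance of the mRNAs nor markers of the cell line were analysed here.

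YB-1 is an RNA- and DNA-binding protein with a cold shock domain and is a main protein component of cytoplasmic mRNPs, where it is known for effects on mRNA translation and stability. The 3′ UTR is the part of an mRNA that elongating ribosomes do not normally enter, and many regulatory proteins and microRNAs bind there. In PAR-CLIP, a crosslinked 4-thiouridine is sequenced as C where the genome has T, so a cluster of reads with T-to-C changes marks RNA that was in contact with the protein. RNase T1 cleaves single-stranded RNA after G, which shapes the ends of the recovered fragments.

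The sequences of 12 sites show what the members share: a stretch rich in C, often with CATC or CACC, which ends in a single G. The capitals mark CATC and CACC, searched on the strand of the mRNA only, and a run of capitals longer than 4 bases holds overlapping or adjoining matches. Each line gives a gene and its site from 5′ to 3′ as hg38 has it on the strand of the gene. The first 8 lines are of sites with high coverage in both replicates, chosen to include sites with neither motif. ZNF337 lies close to the stop codon, FAM136A and QKI were found in Rep.B alone, and PPP2R1A was found in Rep.A alone.
ENO1: ttttctcgcctcactttcCACCaag
YBX3: ccacaaccttaaccaaCACCaaag
MOGS: tcaaaccttcctcatttCATCtcag
PSMB5: accCATCctcCATCctatttatag
VIM: taacaaccgacactcctacaag
CDC25A: taaacctacctcccacactcccaag
CDC37: ccccagctacCACCgcCACCtg
ARF6: cCACCATCACCtctttcaattg
ZNF337: ttatatctCACCATCCATCag
FAM136A: tCACCcCACCATCttccataag
QKI: acCATCtaaccaaacaaaag
PPP2R1A: gtcCACCctccaacccccacaag

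All 160 sites lay in the last exon of their transcript. They belonged to 157 genes, and 3 genes (ATP6V0C, H3-7 and TPT1) had 2 sites each. Distances ran from 14 to 498 bases past the coding sequence, with a median of 168 and quartiles of 75.5 and 316.75. No site reached into the coding sequence, 1 site held a base of the stop codon, and 4 sites were coding in another transcript. The 3′ UTRs of these genes had a median length of 1079 bases, against 888 bases for all selected transcripts with a 3′ UTR, and in 41 of the 157 genes the 3′ UTR was no longer than 500 bases. The 500-base limit fell within the spread of distances. DIS3 at 484 bases, VMP1 at 495 and FEM1B at 498 were the last members inside it. ALKBH5 and the gene ENSG00000285920, both at 503 bases, were among the first outside.

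Sites per base were most frequent close to the stop codon and least frequent beyond 2000 bases, without a step at the 500-base limit. The first 100 bases held 52 sites, the next bins of 100 bases held 41, 23 and 26, and the last held 18. Per 100000 bases of all selected 3′ UTRs, bases 1 to 250 held 2.45 sites (95% exact Poisson interval 2.01 to 2.96) and bases 251 to 500 held 1.55 (1.17 to 2.03). Bases 501 to 1000 held 1.74 (1.40 to 2.13), which overlaps the interval before it. At greater distance the density was 0.831 (0.633 to 1.07) in bases 1001 to 2000 and 0.565 (0.433 to 0.724) beyond. Over bases 1 to 500 together it was 2.05 (1.75 to 2.39), against 0.913 (0.795 to 1.04) for all later bases. Within the 3′ UTRs of the 157 genes, the 5 bins held 3.32, 2.68, 1.61, 1.96 and 1.46 sites per 1000 bases. The bases counted are those of the annotation, and which 3′ ends the cells used was not tested. These intervals and the others below cover counting error only, since PCR duplicates and independent molecules cannot be told apart in the tables.

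**Figure D1:**
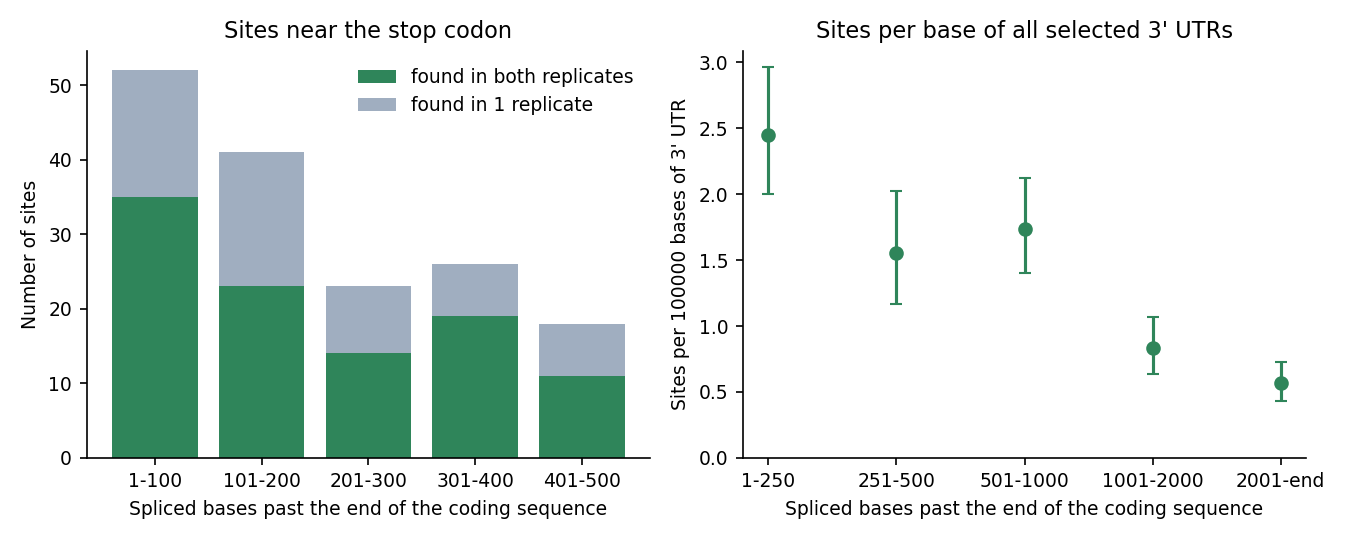
Left, the number of sites in each 100-base bin past the coding sequence (bars from 0, split by whether the site was found in both replicates). Right, sites per 100000 bases of all selected 3′ UTRs in 5 stretches, with 95% exact Poisson intervals. The first 100 bases hold 52 sites and the last bin 18, and the density falls from 2.45 to 0.565.

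Of the 160 sites, 102 (63.8%, 95% Wilson interval 56.1 to 70.8) had clusters in both replicates, beside 48.1% of the 2199 sites of the series. Rep.A alone gave 18 sites and Rep.B alone gave 40. Of the Rep.A members 85% (77.5 to 90.3) had a partner in Rep.B, where the share was 80.0% over all Rep.A clusters under the same limits. Of the Rep.B members 71.8% (63.9 to 78.6) had a partner in Rep.A, against 54.7% over all Rep.B clusters. The members are part of those backgrounds. The clusters of a pair mostly coincided to the base: 83 of 102 (81.4%, 72.7 to 87.7) had the same start and end, 96 had the same 3′ end and 86 the same 5′ end. By distance, sites in both replicates numbered 35, 23, 14, 19 and 11 in the 5 bins.

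Coverage here is the mean number of reads over the bases of a cluster, and it is not scaled for library depth. For Rep.A it ran from 2.9 to 54.2 reads per base (n = 120 sites), with a median of 12.5 and quartiles of 7 and 19. For Rep.B it ran from 3 to 171.5 (n = 142), with a median of 33.5 and quartiles of 19.97 and 47.4. Rep.B was the higher of the 2 for nearly every pair. Over the 102 pairs the log2 difference, Rep.B minus Rep.A, had a median of 1.48 (SD 0.70), beside 1.39 (SD 0.58) over the 1057 sites of the series found in both. Across these 102 sites, which come from the same 2 libraries, log2 coverage had a Pearson r of 0.750 and coverage a Spearman rho of 0.730, given as a description. Coverage showed no order by distance. The medians of the 5 bins were 14, 12.1, 12.5, 10.2 and 15.8 in Rep.A and 31.9, 37.1, 31, 34 and 32 in Rep.B.

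**Figure D2:**
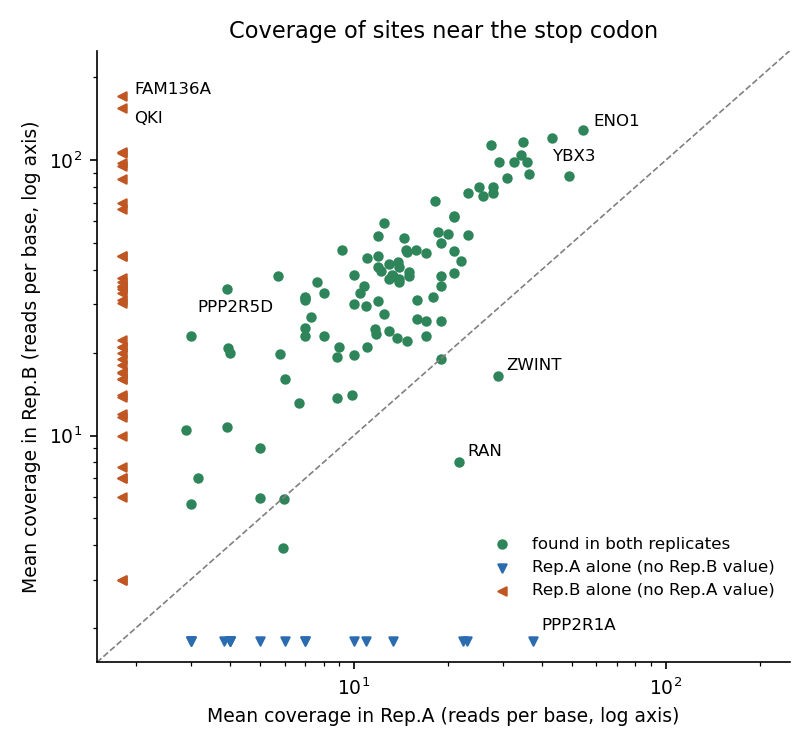
Mean coverage of each site in Rep.A (x axis) and Rep.B (y axis), in reads per base on log axes and not scaled for depth. Points are the 102 sites found in both replicates, triangles at the edges are sites found in 1 replicate, which have no value on the other axis, and the dashed line marks equal coverage. Of the 102 points 97 lie above the line, 4 below it and 1 on it.

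Among sites in both replicates, those of ENO1, YBX3 and MOGS had the highest coverage. ENO1, which encodes the glycolytic enzyme enolase, had 54.2 reads per base in Rep.A and 128.4 in Rep.B at 247.5 bases (chr1:8861104-8861128, minus strand). YBX3, which encodes YB-3, a paralogue of YB-1, had 43.2 and 120.5 at 97 bases (chr12:10699584-10699607, minus strand). MOGS, the glucosidase that starts the trimming of N-glycans, had 49 and 88 at 115 bases (chr2:74461151-74461175, minus strand). Each of these stood above the upper quartile of its replicate in both libraries. PSMB5, a catalytic subunit of the proteasome, had 34.4 and 104.3 at 80 bases (chr14:23026001-23026024, minus strand). VIM, the intermediate filament protein vimentin, had 36 and 98.8 at 157 bases (chr10:17237415-17237436, plus strand). CDC25A, a phosphatase that activates cyclin-dependent kinases, had 36.6 and 89 at 146 bases (chr3:48158790-48158814, minus strand). The sites of VIM and CDC25A hold neither CATC nor CACC, as their sequences above show.

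Another 14 genes complete the 20 sites with the highest coverage. MFSD14A, a transporter-like membrane protein, had 35 and 117 reads per base at 80 bases. EEF2, the elongation factor that moves the ribosome along the mRNA, had 32.5 and 98.8 at 321 bases, a position that is coding in another transcript. TMBIM6, an inhibitor of cell death in the endoplasmic reticulum, had 27.6 and 113.4 at 328 bases in a site of only 10 bases. HAX1, a mitochondrial anti-apoptotic protein, had 29.3 and 98.5 at 42 bases, and MARCKS, an actin-binding substrate of protein kinase C, had 31 and 86 at 200 bases. The sequences of HAX1 and MARCKS occur at 2 places in the genome, so that reads from those places could not be told apart. PPT1, a lysosomal thioesterase, had 28 and 79.9 at 122 bases. The proton pump subunit ATP6V0C (28 and 76 at 352 bases) and the cytokine MIF (25.2 and 80.0 at 77 bases) both lay at bases that selected transcripts of 2 genes share, as did MFSD14A. EIF5, which activates GTP hydrolysis in the initiation complex, had 26 and 74 at 354 bases.

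CDC37, the cochaperone that brings kinases to HSP90, had 23.3 and 75.9 at 19 bases (chr19:10391525-10391546, minus strand). ID2, an inhibitor of basic helix-loop-helix factors, had 21 and 63 at 50 bases, and the small GTPase ARF6 had 21 and 62 at 76 bases (chr14:49894327-49894348, plus strand). In all of these, Rep.B exceeded Rep.A. The zinc finger gene ZNF703 had 18.2 and 71.2 at 14 bases, and H3-3A, which encodes the replication-independent histone H3.3, had 23.3 and 53.6 at 422 bases in a sequence with 3 copies in the genome. The sites nearest to the stop codon and found in both replicates were those of ZNF703, ZNF337 (8.81 and 19.3 at 16 bases, chr20:25675009-25675029, minus strand), ELP3 (7 and 31 at 17 bases), UBE2S (5.91 and 3.91 at 17 bases, 3 copies) and CDC37. UBE2S was under the lower quartile of the members in both replicates, and CDC37 was above the upper quartile in both.

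**Figure D3:**
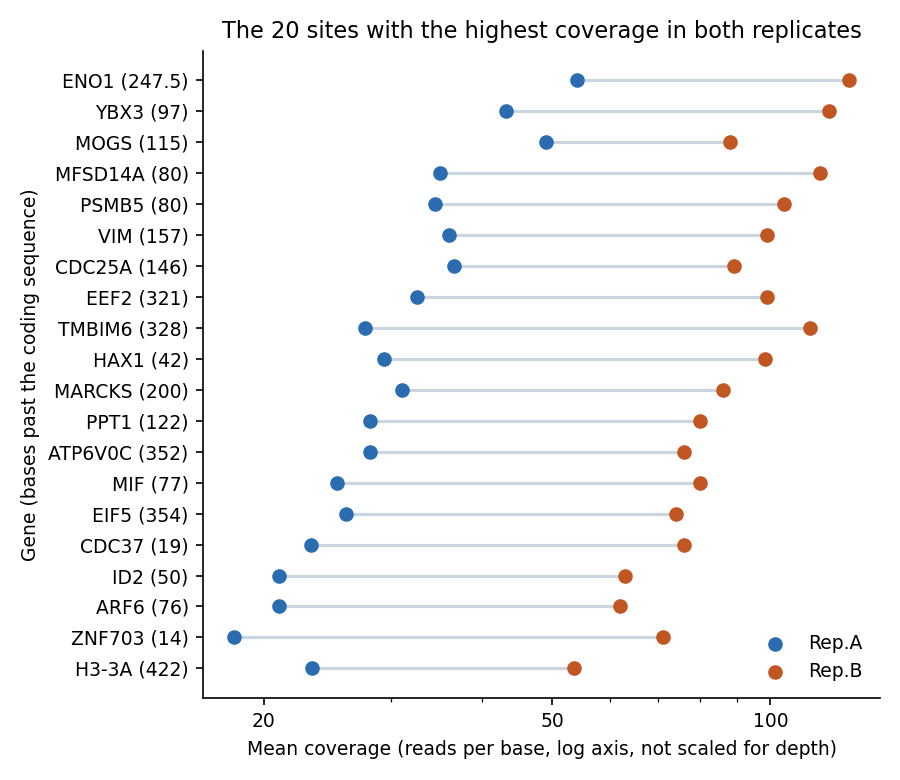
Mean coverage in Rep.A and Rep.B (reads per base, log axis, not scaled for depth) of the 20 sites with the highest geometric mean of both replicates. Each line joins the 2 values of a site, and the number after each gene is its distance past the coding sequence in bases. Rep.B is the higher at all 20 sites, from 53.6 (H3-3A) to 128.4 (ENO1).

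A few sites departed from the common shift between replicates, and 11 of 102 pairs lay more than 1 log2 unit from the median difference. RAN, the GTPase of nuclear transport, was higher in Rep.A, with 21.8 reads per base against 8 in Rep.B (log2 difference −1.44, 2 copies). ZWINT, a kinetochore protein, had 29 against 16.4 (−0.82). UBE2S, a ubiquitin-conjugating enzyme of the anaphase-promoting complex, differed by −0.60, and RBMX, a nuclear RNA-binding protein, had 5.95 and 5.86 (−0.02). These 4 were the only pairs higher in Rep.A. At the other end, PPP2R5D, a regulatory subunit of protein phosphatase 2A, had 3.91 reads per base in Rep.A against 34 in Rep.B (3.12), and ABHD17C, a depalmitoylating enzyme, had 3 and 23 (2.94). With 1 library for each replicate, no test of these departures was possible.

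Sites found in 1 replicate had lower coverage on the whole, but not all of them. The median was 5.5 for the 18 in Rep.A alone, against 13.3 for Rep.A at the sites in both. It was 21.7 for the 40 in Rep.B alone, against 36.0 for Rep.B at the sites in both. The highest coverage of any member was in Rep.B alone. FAM136A, a mitochondrial protein, had 171.5 reads per base at 434 bases (chr2:70296848-70296869, minus strand), and QKI, an RNA-binding protein of the STAR family, had 154.7 at 148 bases (chr6:163570846-163570865, plus strand). Both exceeded ENO1 in that library, and the nearest Rep.A cluster on the same strand was 691003 bases away for FAM136A and further for QKI. Others in Rep.B alone were RAP1B (107 at 94 bases, 2 copies), CLTB (106.7 at 120), SSR2 (98.1 at 20) and COX8A (95.05 at 115). RAP1B is a small GTPase, CLTB a clathrin light chain, SSR2 a subunit of the translocon-associated complex and COX8A a subunit of cytochrome c oxidase. Of the 40 sites in Rep.B alone, 12 were above the Rep.B median of the sites in both. Of the 18 in Rep.A alone, 4 were above the Rep.A median of the sites in both. The highest of those was PPP2R1A, the scaffold subunit of protein phosphatase 2A, with 37.6 at 47 bases (chr19:52226014-52226036, plus strand), followed by COPB2, a coatomer subunit, with 23 at 258 bases. In 3 of the 58 sites (YARS1, TPT1 and RAB8A) a cluster of the other replicate lay within 100 bases, and for YARS1 it was an overlapping Rep.B cluster of 35883 bases, left out for its width.

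Nearly all sites ended in G, the base after which RNase T1 cleaves. Widths ran from 10 to 47 bases with a median of 22.5 and quartiles of 21 and 24.25. The last base was G in 156 of 160 sites (97.5%, 93.7 to 99.0), and 102 sites (63.8%, 56.1 to 70.8) held no other G. The base just before the site was G in 75 (46.9%, 39.3 to 54.6), and 48 sites (30%, 23.4 to 37.5) ran from one G to the next with none between. Within the sites, C made up 39.0% of the bases, T 27.5%, A 25.9% and G 7.53%. In the first 500 bases of the 3′ UTRs of the same genes the shares were 23.6% C, 29.7% T, 25.2% A and 21.4% G. C was thus higher in the sites and G lower, while T and A were within 3 points of their levels in the same 3′ UTRs. C reached 52.8% and 53.8% of sites at the bases 15 and 16 counted back from the 3′ end.

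CACC was in 71 sites (44.4%, 36.9 to 52.1) and CATC in 59 (36.9%, 29.8 to 44.6). A site could hold both, and 17 did, so that 113 (70.6%, 63.2 to 77.1) held at least 1 of the motifs and 47 held neither. Of all windows of the same lengths in the first 500 bases of the selected 3′ UTRs, 8.34% held CACC and 7.05% held CATC, so the sites had 5.32 and 5.23 times the share. G was scarce before the last base of the sites, and 102 of 160 held none there. Windows were therefore also matched for their count of G bases and for whether they ended in G. Of those, 13.4% held CACC and 12.5% held CATC, which gave ratios of 3.31 and 2.95. Matched windows in the 3′ UTRs of the 157 genes held CACC in 19.5% and CATC in 19.0%, with ratios of 2.28 and 1.94. All windows were counted, so those of the sites themselves are among them, and they weigh most within the 157 genes. Among the 81 tetramers without G, CACC had the highest ratio and CATC the next, with and without matching. Other tetramers came close to CATC, with matched ratios of 2.81 for CCAC, 2.81 for ACCA and 2.73 for TCCA. By share of sites CACC was also the highest, but CATC was below TCCA (41.9%), CCAC (39.4%) and TTCC (38.1%). The windows were not matched for C, which was higher in the sites. The place of CATC and CACC in the site was spread widely. CATC ended a median of 8 bases before the 3′ end (71 matches, quartiles 5 and 14) and CACC a median of 12 bases (90 matches, quartiles 5.25 and 16). Repeats of a motif in 1 site were found for CATC in 8 sites, as in PSMB5, and for CACC in 13 sites, as in CDC37.

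The motifs were present in every subset of sites examined. CATC was in 40 of the 102 sites found in both replicates and 19 of the 58 found in 1, and CACC in 42 and 29. Among the 121 sites whose sequence occurs once in the genome, CATC was in 37.2% and CACC in 43.0%. By distance, 73.1%, 73.2%, 65.2%, 69.2% and 66.7% of the sites in the 5 bins held at least 1 of the motifs. No cluster of the members held only 1 T, the fewest being 2 in either replicate. In YBX3 and ID2 both T bases of the site were transition positions in both replicates, and in the other sites the tables do not say which T was changed. T-to-C changes were at 1 position in 99 of the 120 Rep.A clusters and 117 of the 142 Rep.B clusters, and at 2 positions in 21 and 23, and in Rep.B 2 clusters had 3 positions.

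The members were set against 214 sites further into the 3′ UTR (past 500 bases) and 372 sites in the later part of the coding sequence (past its midpoint). Differences of shares are given in percentage points with 95% Newcombe intervals, 10 of which were computed without adjustment, and 4 left out 0. CACC was more frequent near the stop codon than further into the 3′ UTR, at 44.4% against 31.3%, a difference of 13.1 points (3.16 to 22.8). Either motif was in 70.6% against 57.9%, a difference of 12.7 points (2.83 to 22.02). Windows further into the 3′ UTR also held CACC less often, 6.82% against 8.34%, so the ratio of sites to windows was 4.59 there and 5.32 near the stop codon, or 3.11 and 3.31 with windows matched for G. C made up 37.2% of the bases of the further sites. CATC was in 34.6% of them, and the difference of 2.30 points (−7.38 to 12.1) did not exceed counting error.

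The order of the shares was another one in the later part of the coding sequence. CATC was less frequent near the stop codon, 36.9% against 47.8%, a difference of −10.97 points (−19.7 to −1.78). Windows of that coding sequence held CATC in 10.6%, and the ratio of sites to windows was 4.50 there against 5.23 near the stop codon. CACC was in 43.5% of the coding sites, a difference of 0.83 points (−8.21 to 10.0), and in 11.1% of the coding windows, a ratio of 3.94 against 5.32 near the stop codon. With windows matched for G the ratios in the coding sequence were 1.77 for CACC and 1.89 for CATC, against 3.31 and 2.95 near the stop codon. T made up 27.5% of the bases of sites near the stop codon and was 1892 of the 8599 bases of the coding sites. The share found in both replicates was 57.5% further into the 3′ UTR and 59.9% in the coding sites, with differences of 6.27 (−3.75 to 16.0) and 3.80 points (−5.29 to 12.5), so no difference was detectable at these numbers. Sequences occurring once in the genome were less frequent near the stop codon than further into the 3′ UTR, 75.6% against 84.1%, a difference of −8.49 points (−16.9 to −0.35). In the coding sites the share was 68.0%, and that difference of 7.61 points (−0.90 to 15.4) did not exceed counting error. Median coverage was 12.5, 14 and 13 reads per base in Rep.A, and 33.5, 32.1 and 31.7 in Rep.B, for sites near the stop codon, further into the 3′ UTR and in the coding sequence.

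In 122 of the 157 genes the site near the stop codon was the only one in the transcript, and 124 had no site in another region. Another site lay in the coding sequence in 23 genes, further into the 3′ UTR in 13 and in the 5′ UTR in 1. In 15 genes both a site near the stop codon and another site were found in both replicates. The strongest such site of each kind was compared within the same mRNA. Sites found in 1 replicate were left out, among them coding sites in Rep.B alone of TUBB (128 reads per base) and TUBA1B (126.6). The site near the stop codon had the higher coverage in both replicates in 6 genes (VIM, ZNF703, ZNF3, VDAC1, USP39 and TMBIM6) and the lower in 6 (TUBA1B, PIP5K1A, CSNK2A1, EEF2, PTP4A2 and POLR2D), and the replicates were opposed in HDGF, TUBB and PPP2R5D. VIM had 36 reads per base near the stop codon against 5.58 in the coding sequence in Rep.A, and 98.8 against 27.1 in Rep.B. TUBA1B, an alpha-tubulin, was the reverse, with 3.16 against 35.0 in Rep.A and 7 against 107.9 in Rep.B. The other site of TUBA1B has 2 copies in the genome, that of EEF2 7, that of VDAC1 4 and that of TUBB 2, and the sites near the stop codon of PTP4A2, TUBB and VDAC1 have 2, 4 and 2, so these comparisons can include reads of the copies. The direction differed between genes.

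**Figure D4:**
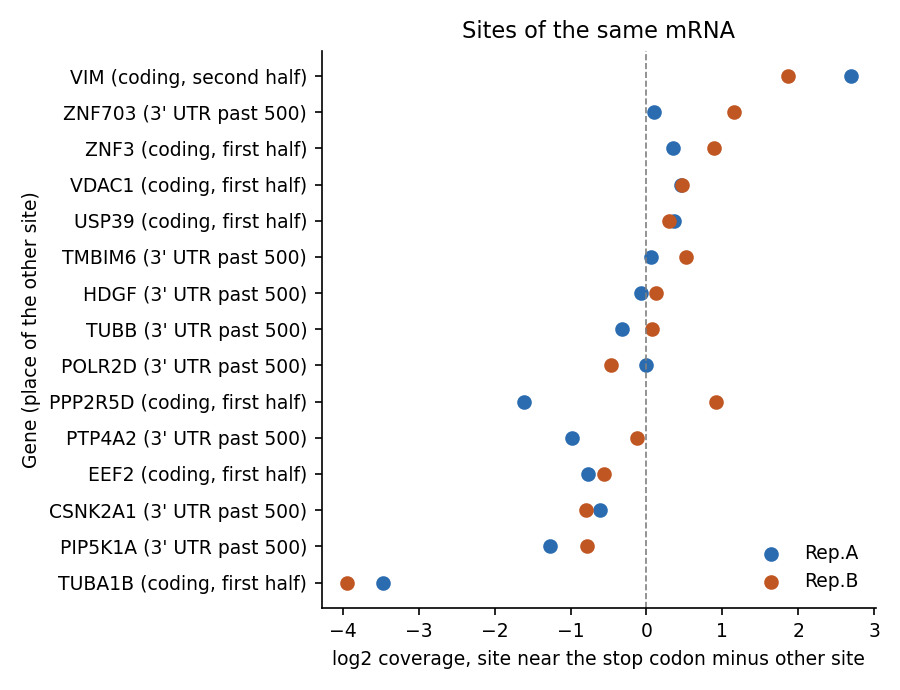
The log2 coverage of the site near the stop codon minus that of another site of the same mRNA, in Rep.A and Rep.B. Shown are the 15 genes with both kinds of site found in both replicates. The other site is the strongest of those found in both. The place of the other site is given after each gene, and the dashed line marks equal coverage. VIM lies furthest to the right and TUBA1B furthest to the left, in both replicates.

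Copies of a sequence limit what a site says about its gene. In 121 sites (75.6%, 68.4 to 81.6) the sequence occurred once in the genome, in 38 it occurred at 2 or more places, and the 10-base site of TMBIM6 was too short to search. Of the 38 sites, 15 had 2 copies and 10 had 5 or more, up to 15 for PRRC2B. The aligner placed a read with several best matches at random, so coverage of such a site can be reads of its copies, and copies may share reads. The H3-7 site at 207 bases (8.82 and 13.7 reads per base) has 6 copies, and 2 of those lie in coding sequence of the H2B histone genes H2BC18 and H2BC21. The second H3-7 site, at 405 bases, was in Rep.B alone with 33 and has 3 copies. TPT1, the translationally controlled tumour protein, had 5.71 and 38.1 at 157 bases (3 copies) and 30.25 in Rep.B alone at 127 bases (4 copies), and the second ATP6V0C site, at 51 bases, was in Rep.A alone with 3.83 (2 copies).

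Gene groups were compared as the number of genes with a site near the stop codon among those with any site in the selected transcript, of which there were 157 of 791 over all genes. In 13 lists, 33 of the 157 genes were found and 124 were in none. The lists are not complete, so a gene in none of them can still be of a listed kind. Cytosolic ribosomal proteins had 30 genes with a site, of which 2 had it near the stop codon (RPL39 and RPL10, both with several copies in the genome). Mitochondrial ribosomal proteins had 0 of 7, and the list of hnRNPs, SR proteins and RNA helicases had 0 of 8. That list holds neither RBMX (5.95 and 5.86 at 384 bases, 3 copies) nor TRA2A (10.95 in Rep.A alone at 170 bases). Both encode RNA-binding proteins and had a site near the stop codon, so the 0 of 8 covers only the genes listed. In the list of translation factors, which also holds the inhibitor EIF4EBP1, 6 of 14 had a site near the stop codon. These were EEF2, EIF5, EIF1 (2 copies), EIF4EBP1, EEF1G (3 copies, Rep.B alone) and EIF5AL1 (4 copies, Rep.B alone). A copy of the EIF5AL1 sequence lies in EIF5A. EIF4EBP1, the inhibitor of cap-dependent initiation under control of mTOR, had 10.8 reads per base in Rep.A and 35 in Rep.B at 149 bases.

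Cold shock domain proteins had 3 of 4, among them YBX3 and CARHSP1 (11.8 and 23.5). Glycolytic enzymes had 3 of 6 (ENO1, TPI1 with 10 and 19.6, LDHA in 5 copies with 5 and 5.92). The list of actins, tubulins and actin-binding proteins had 3 of 7 (TUBA1B, TUBB in 4 copies with 12 and 41, ACTB with 45 in Rep.B alone). MARCKS (31 and 86), also actin-binding, is not in that list. The list of chaperones and the proteasome had 6 of 23: PSMB5, CDC37, PSMA4 (2 copies), PPIA (13 copies), and CALR and STIP1 in Rep.A alone. That list holds neither FKBP4 (69.8 in Rep.B alone) nor BAG3 (11.7 and 24.3), which are cochaperones. Histone and HMG proteins had 3 of 24: H3-3A (3 copies), H3-7 (6 and 3 copies) and HMGN1 (11 copies, Rep.A alone). Cell cycle and replication genes had 3 of 12 (CDC25A, CKS1B in 5 copies and UBE2S in 3 copies). The list of tRNA synthetases and amino acid synthesis had 3 of 7 (SHMT2, PYCR1 in Rep.B alone and YARS1 in Rep.A alone). Oxidative phosphorylation had 1 of 6 (COX8A, Rep.B alone) and stress-response translation 1 of 4 (EIF4EBP1). The counts are small, the lists were not tested, and the abundance of the mRNAs was not analysed here.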

How the data were processed

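The data were YB-1 PAR-CLIP clusters of 2 replicates of 1 condition. The authors used cutadapt 2.10 for trimming and Bowtie 1.0.0 for alignment to hg38 (versions per the submitters' processing notes), with multiply matching reads placed at random, and ran wavClusteR on the 2 replicates separately. The mean coverage they deposited is a signal, the average number of reads over a cluster, without scaling for depth. The deposited tables also hold, as counts, the T-to-C transition positions and T bases of each cluster. Their quotient was deposited by the authors as a fraction, the crosslinking efficiency. The deposited log odds are a score with no fixed range. Library totals were not used here.

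The sequences of all 3393 clusters equalled hg38 after those of the minus strand, deposited as plus-strand sequence, had been reverse-complemented. Clusters were placed by their middle base (rounded down) on the GENCODE release 44 transcript with the longest coding sequence and joined between replicates with at least 1 shared base. Exact copies of each cluster sequence from 12 to 60 bases long were counted on either strand of the chromosomes. The motif and copy searches were tested on simulated data. Shares have 95% Wilson intervals, differences Newcombe intervals and densities exact Poisson intervals. No p-value was computed, since there was 1 condition.

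The named sites were the 20 with the highest geometric mean coverage in both replicates, the 5 nearest to the stop codon found in both, genes with 2 or more sites, the sites at the 500-base limit and members of the gene lists, some of which are not reported here. Pairs that departed from the common shift, sites found in 1 replicate and the comparisons within a gene were chosen after their values were seen. The members and lists were chosen with earlier results of these data known, and the pattern for tubulins was corrected after the files were read. Of 13 alternatives, counting the stop codon as coding was chosen after seeing the data, as was recomputing the difference in CACC. Python 3.11.15, numpy 2.4.6, pandas 2.3.3, pysam 0.24.0, numba 0.67.0 and matplotlib 3.10.9 were used.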

Additional observations from a re-analysis of the deposited data

How the results depend on the processing

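The members were recounted under 13 alternatives, and 149 of the 159 recomputed values stayed within 1.5 times the count, the interval of the share or the spread of the values. The number of sites was 106 with a limit of 250 bases, 253 with a limit of 1000 bases and 82 when clusters below the median relative log odds of their replicate were left out. The genes were 239 with the limit of 1000 bases and 81 with the log odds limit. The median distance was 336.5 bases with the limit of 1000 bases, by construction. Sites found in both replicates were 161 with the limit of 1000 bases and 31 with the log odds limit. Their share was 37.8% with the log odds limit and 52.2% with a mean coverage of at least 10, where a pair counts only if both clusters pass. The difference in CACC between sites near the stop codon and those further into the 3′ UTR kept its sign, from 9.69 to 15.5 points. The difference in CATC, which did not exceed counting error, was −4.91 points with the log odds limit. Leaving out Rep.A gave 142 sites and leaving out Rep.B gave 120. Depth limits the sites of low coverage: a site listed for 1 replicate may have had reads in the other that were not called. With 1 library for each replicate and no control library, nothing was tested beyond counting error.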

Other observations

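The base before the final G was A in 84 of the 155 sites that ended in G after another base than G (54.2%, 46.3 to 61.8), T in 55 (35.5%) and C in 16 (10.3%). Among all G not preceded by G in the first 500 bases of the selected 3′ UTRs, A preceded 42.5%, T 48.4% and C 9.10%. The genes with a site near the stop codon used the stop codons TGA in 72 of 157 (45.9%), TAA in 50 (31.8%) and TAG in 35 (22.3%), against 49.2%, 28.3% and 22.5% of all selected transcripts. Neither difference was tested.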
